A study of Canis lupus familiaris with 4 samples.

Results

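The genes described here encode the enzymes that turn extracellular nucleotides into adenosine, the receptors that sense adenosine, and the proteins that clear it. They are ENTPD1, ENTPD2, ENPP1, NT5E, ADORA1, ADORA2A, ADORA2B, ADA, DPP4 and SLC29A1, matched by symbol. Of these 10 genes, 9 were measured among the 30951 genes of the table, each in a single row, and ADORA2B was not analysed here. The set was chosen knowing that the RNA of NT5E is low in these cells although its protein is a standard marker of mesenchymal stromal cells (MSCs), so the levels of the 9 genes are given as a description and no test of them is reported.

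ATP that leaves a stressed or stimulated cell is cut at the cell surface in steps. ENTPD1 (CD39) removes phosphates from ATP and ADP, and ENTPD2 removes phosphate from ATP. ENPP1 splits ATP into AMP and pyrophosphate, and NT5E (CD73) turns AMP into adenosine. Adenosine then acts on G protein-coupled receptors: in mammals ADORA1 lowers cyclic AMP, and ADORA2A and ADORA2B raise it. It is removed by deamination to inosine through ADA, which in humans binds to the surface protease DPP4 (CD26), or by uptake through the nucleoside carrier SLC29A1 (ENT1). Adenosine made by MSCs is known for its immunosuppressive effect.

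RNA came from primary MSC lines grown out of adipose tissue and kept without any treatment, 1 line and 1 library for each of 4 dogs, harvested after 48 h in multiwell plates in medium with 10% fetal bovine serum. There is 1 group and no treatment, so the data compare the dogs with each other and a gene with the other genes of its library. Libraries held 7474011 to 22411268 reads assigned to genes, with dog 4 the shallowest. All 7 MSC markers examined (THY1, ENG, CD44, ITGB1, PDGFRA, PDGFRB and ALCAM) were above the median detected gene. That call was given to 33.3% of all tested genes. Of 12 leukocyte genes, 6 had 0 reads in every dog, among them CD3E, CD4 and the B cell genes CD79B and MS4A1. The same held for 2 of 7 endothelial genes (PECAM1 and EMCN). Of all 30951 genes, 10854 had 0 reads in every dog, so these counts alone do not show that such cells were absent. The leukocyte genes with the most reads were the B cell gene CD79A, with 5697 to 7342 normalized reads, and CSF1R, with 74.0 to 276. Among the endothelial genes they were VWF, with 26.0 to 273, and KDR, with 59.98 to 73.7. The other genes of these lists that had reads, such as TEK, CD68 and CDH5, had at most 27 over all dogs. Values by dog below are normalized reads, that is reads divided by the size factor of the library. Intervals are 95% exact Poisson intervals, which cover counting error only.

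NT5E (ENSCAFG00000002994), the enzyme that makes adenosine from AMP, was represented by few reads in each dog. It had 47, 20, 21 and 3 reads in dogs 1 to 4, or 33.8, 18.5, 20.05 and 6.51 normalized reads. Dog 1 was the highest and dog 4 the lowest. The 3 reads of dog 4 carry an interval of 1.34 to 19.0 normalized reads, which overlaps those of dog 2 (11.3 to 28.5) and dog 3 (12.4 to 30.6) but not that of dog 1 (24.8 to 44.9). The ratio of dog 1 to dog 4 was 5.19, with a counting interval of 1.67 to 26.1. When every library was thinned to the depth of dog 4, 16, 8, 12 and 3 reads were left, so the order of the highest and the lowest dog was kept. The genes next to NT5E in the dog RefSeq annotation did not follow it: TBX18, on one side, had 333, 285, 358 and 275 normalized reads, and SNX14, on the other side, had 1524, 1603, 1725 and 2290.1.

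The genes of nucleotide hydrolysis comprised a pair with few reads and 1 with many. ENTPD1 (ENSCAFG00000008433) had 4, 2, 3 and 6 reads in dogs 1 to 4. These are 2.87, 1.85, 2.86 and 13.01 normalized reads, highest in dog 4, where the interval of 4.78 to 28.3 overlaps those of the other dogs. ENTPD1 is typical of leukocytes and endothelium, and the 12 leukocyte genes summed to 5827 to 7430 normalized reads, of which CD79A was 5697 to 7342. Without CD79A the sum was 88.4 to 285, most of it CSF1R, and the pan-leukocyte gene PTPRC had 5 reads in dog 3 and 0 in the other dogs. The part of such cells in the ENTPD1 reads was not tested. ENTPD2 (ENSCAFG00000019522) had 14, 25, 5 and 3 reads, or 10.1, 23.1, 4.77 and 6.51 normalized reads, with dog 2 the highest. Its interval in dog 2 (14.9 to 34.1) lies above that of dog 3 (1.55 to 11.1) and overlaps those of dog 1 (5.498 to 16.9) and dog 4 (1.34 to 19.0).

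ENPP1 (ENSCAFG00000000001), the enzyme that releases pyrophosphate from ATP, was well covered in dogs 1 to 3 and less so in dog 4. It had 902, 726, 1003 and 110 reads, or 648, 669.9, 957 and 239 normalized reads. Dogs 1 and 2 were alike, dog 3 was highest, and dog 4 held less than any other dog. The interval of dog 4 (196 to 288) does not overlap the next lowest, that of dog 1 (606 to 692). On the log2 scale dog 4 lay 1.55 below the mean of the other 3 dogs (difference -1.55), which had an SD of 0.30 among themselves.

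**Figure D1:**
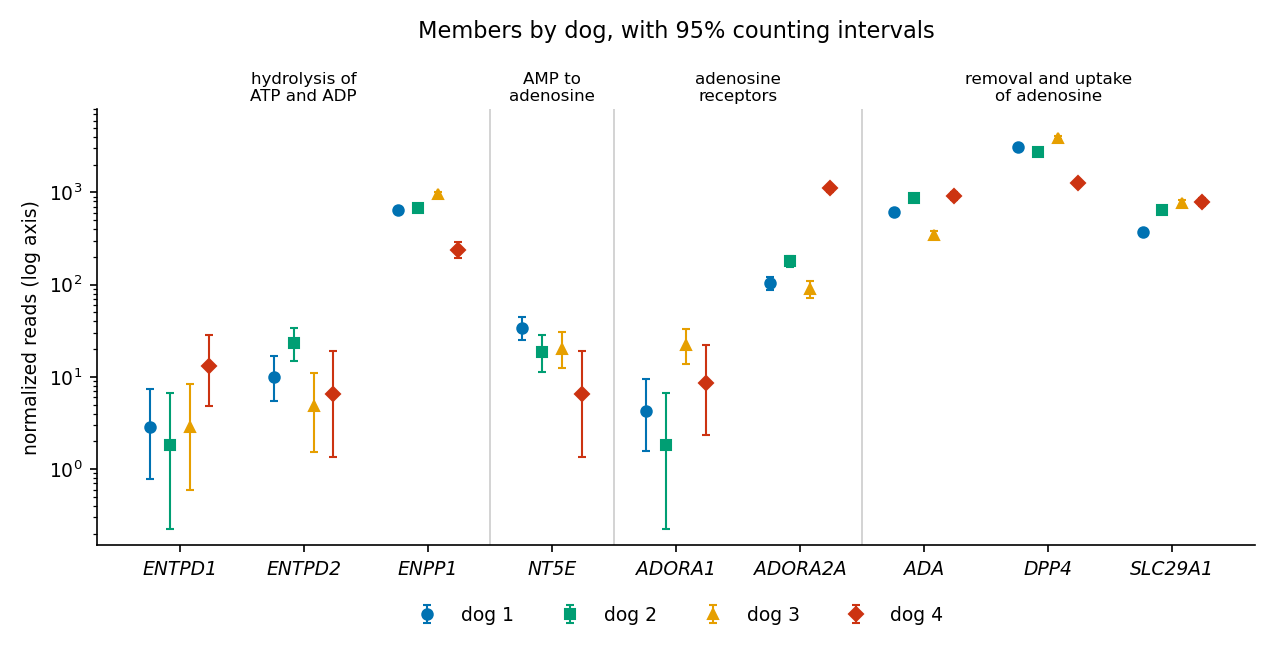
Normalized reads of the 9 measured genes in each dog on a log axis, grouped by role; symbols are dogs and bars are 95% Poisson intervals of the reads. ADORA2A stands at 1113 in dog 4 and at 88.8 to 179 in the other dogs, and the intervals of ENTPD1, ENTPD2, NT5E and ADORA1 are wide because few reads lie behind them.

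Of the 2 measured adenosine receptors of the set, ADORA2A had the larger SD between dogs on the log2 scale, 1.57 against 0.58 for ADORA1. The ratios of the highest to the lowest dog were 12.5 for ADORA2A (counting interval 10.03 to 15.8) and 11.9 for ADORA1 (2.94 to 104). ADORA2A (ENSCAFG00000013828), the receptor through which adenosine restrains immune cells, had 144, 194, 93 and 513 reads, or 103, 179, 88.8 and 1113 normalized reads in dogs 1 to 4. Dog 4 held 8.99 times the mean of the other 3 dogs. Its interval, 1018 to 1213, lies far above the next highest, 155 to 206 in dog 2. In reads thinned to equal depth the counts were 47, 86, 44 and 513, again highest in dog 4. Dog 4 was 3.05 above the mean of the other dogs on the log2 scale, and 0.209% of all tested genes exceeded their other dogs by as much in dog 4.

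The genes next to ADORA2A did not show a rise of that size in dog 4. SPECC1L, its neighbour on one side in the RefSeq annotation, had 1349, 1291, 1000.4 and 1876 normalized reads, 0.65 above the other dogs in dog 4. UPB1, on the other side, had 6.46, 20.3, 21.0 and 30.4 normalized reads. Other features of dog 4 moved with it. The 7 pericyte and smooth muscle genes summed to 83153 normalized reads in dog 4, against 20338 to 36101 in the other dogs. ACTA2 made up 66732 of that sum in dog 4, against 13387 to 29593, and NOTCH3 had 10830.2, against 2133 to 3889, whereas CSPG4 (4246, against 2393 to 4382) and KCNJ8 (15.2, against 4.61 to 25.8) lay within the range of the other dogs. MYH11 had 1321, against 1031 to 1181, DES had 8.67, against 0 to 2.86, and RGS5 was at 0 in all. Of 4 epithelial and mesothelial genes, KRT18 had 943 normalized reads in dog 4, against 6.46 to 23.9, but UPK3B and EPCAM had 0 in dog 4 and CDH1 0 in all. Dog 4 is also the shallowest library. Their part in the ADORA2A result was not tested.

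ADORA1 (ENSCAFG00000010298), the receptor that lowers cyclic AMP, had 6, 2, 23 and 4 reads, or 4.31, 1.85, 22.0 and 8.67 normalized reads. Dog 3 was the highest, and its interval (13.9 to 32.9) lies above those of dog 1 (1.58 to 9.38) and dog 2 (0.223 to 6.67) but overlaps that of dog 4 (2.36 to 22.2). The remaining receptor of the family, ADORA3, had 0 reads in every dog, which over all libraries allows up to 0.0489 CPM, reads scaled to the total of assigned reads (3 reads of that total).

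The genes that clear adenosine were well covered in every dog. ADA (ENSCAFG00000009498), adenosine deaminase, had 861, 946, 363 and 421 reads, or 618, 873, 347 and 913 normalized reads. Dogs 2 and 4 were alike and high, and dog 3 was low. The interval of dog 3 (312 to 384) does not overlap that of dog 1 (578 to 661), the next lowest. In bulk RNA, fewer cells that express a gene and less RNA per cell cannot be told apart.

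DPP4 (ENSCAFG00000025002), the surface protease that anchors ADA in humans, had 4323, 2993, 4112 and 581 reads. In normalized reads these are 3105, 2762, 3925 and 1260.0. Dogs 1 to 3 were the higher ones, and dog 4 was at 0.386 times their mean. On the log2 scale dog 4 lay at a difference of -1.33 from the other dogs, which had an SD of 0.25. For DPP4 as for ENPP1, dog 3 was highest and dog 4 lowest, while dogs 1 and 2 changed places. Other genes, PDGFRA, PDGFRB and ADK among them, had the same highest and lowest dog. Across all tested genes, dog 3 was the highest in 23.4% and dog 4 the lowest in 28.8%.

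SLC29A1 (ENSCAFG00000001981), the equilibrative carrier of adenosine, had 514, 692, 801 and 362 reads, or 369, 639, 765 and 785 normalized reads. Here dog 1 was the low one, at a log2 difference of -0.92 from the other dogs. Dogs 3 and 4 had overlapping intervals (713 to 819 and 706 to 870.2). The highest and the lowest dog differed 2.13-fold, the smallest such ratio of the 9 genes, and 2.63-fold for ADA, 3.12-fold for DPP4 and 4.01-fold for ENPP1.

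**Figure D2:**
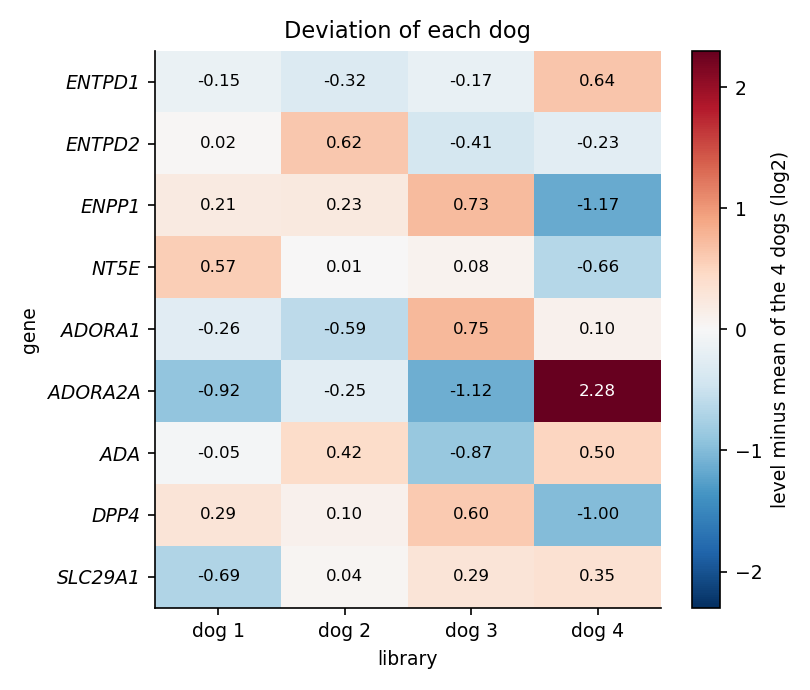
Deviation of each dog (columns) from the gene's mean over the 4 dogs, in log2 units of the level, for the 9 measured genes (rows); red is above the mean and blue below. The deviation of ADORA2A in dog 4, 2.28, is the farthest from 0, and ENPP1 (-1.17) and DPP4 (-0.997) are low in the same dog.

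The 9 genes did not follow 1 common direction across the dogs. Dog 4 held the highest value of 4 genes (ENTPD1, ADORA2A, ADA and SLC29A1) and the lowest of 3 (ENPP1, NT5E and DPP4). Across all tested genes, dog 4 was the highest in 36.8% and the lowest in 28.8%. Dog 3 was the highest for ENPP1, DPP4 and ADORA1 and the lowest for ADORA2A, ADA and ENTPD2, against 23.4% and 31.1% of all genes. Dog 1 was the highest for NT5E alone and the lowest for SLC29A1 alone, against 22.4% and 19.7% of all genes, and dog 2 was the highest for ENTPD2 and the lowest for ENTPD1 and ADORA1, against 17.4% and 20.3%. In no gene of the set did 1 dog stand apart by Dixon's measure, the gap to the nearest value over the range of the 4 dogs, which 5.36% of all tested genes passed, 3.12% with dog 4 as the dog apart.

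The spread between dogs is the measure that played no part in choosing the genes, and it was tested for all 17200 detected genes against the SD that genes of similar level have. None of the 9 genes passed after Benjamini-Hochberg adjustment in limma, as was true of every gene: 0% of the 17200 were called. Before adjustment, 4 of the 9 genes had a p under 0.05 and 5.2% of all tested genes did. These were ADORA2A, ENPP1, DPP4 and ADA. Without dog 4 the count was 2, ADA and SLC29A1, and with a prior without a trend it was 1, ADORA2A. ADORA2A had an SD of 1.57, against a trend of 0.35 at its level (limma adjusted p = 0.263), and 0.564% of all genes had an SD as large. Without dog 4 the SD of the remaining dogs was 0.46 (limma adjusted p = 0.983).

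ENPP1 had an SD of 0.81, against a trend of 0.27 (limma adjusted p = 0.581). DPP4 had an SD of 0.70, against 0.25 (limma adjusted p = 0.654), and ADA one of 0.63, against 0.27 (limma adjusted p = 0.867). Without dog 4 the SD was 0.30 for ENPP1 and 0.25 for DPP4, and without dog 3 it was 0.29 for ADA. SLC29A1 (SD 0.48), ADORA1 (0.58), NT5E (0.50), ENTPD2 (0.45) and ENTPD1 (0.43) each had an adjusted p of 0.983 in limma. At the few reads of the last 4 genes, the trend itself is 0.53 to 0.55, so a difference between dogs would have to be large to be detectable at this depth.

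**Figure D3:**
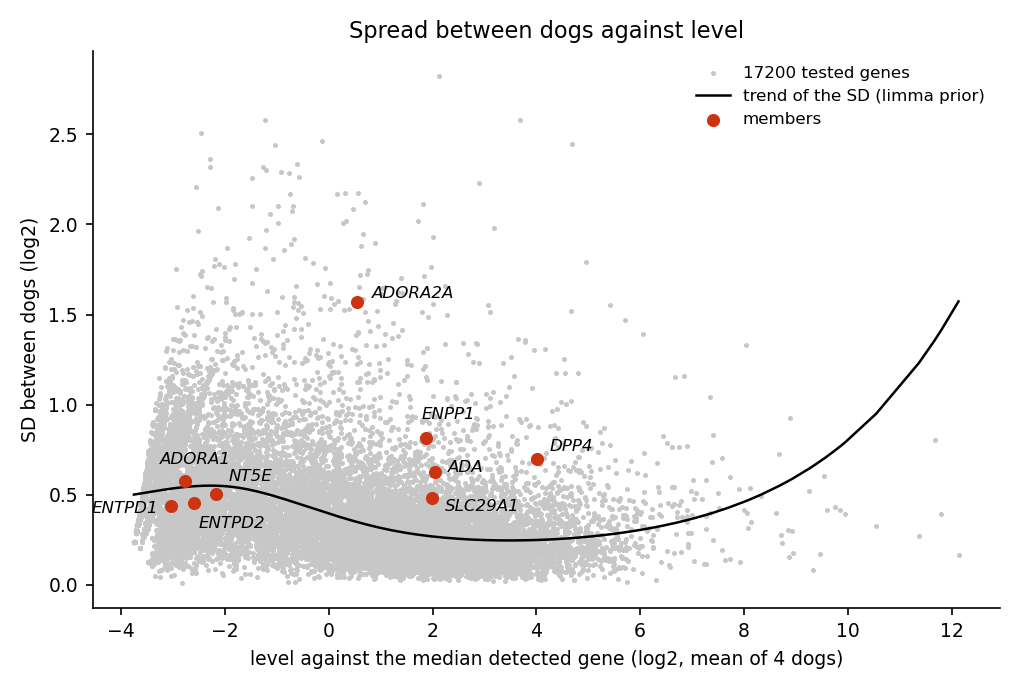
SD between the 4 dogs against the level relative to the median detected gene, both in log2 units, for the 17200 tested genes (grey), the trend of the SD (line) and the 9 measured genes (red). ADORA2A (SD 1.57), ENPP1 (0.81), DPP4 (0.70), ADA (0.63) and SLC29A1 (0.48) lie above the line, and the genes with few reads lie near it.

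Against the median detected gene of the library, the 9 genes split. The level is the log2 value minus that median, in which gene length is not corrected, since no transcript lengths were used here. Levels were 4.01 ± 0.70 for DPP4, 2.06 ± 0.63 for ADA, 1.99 ± 0.48 for SLC29A1 and 1.87 ± 0.81 for ENPP1 (mean ± SD over the dogs, n = 4). They were 0.55 ± 1.57 for ADORA2A, -2.17 ± 0.50 for NT5E, -2.59 ± 0.45 for ENTPD2, -2.77 ± 0.58 for ADORA1 and -3.04 ± 0.43 for ENTPD1. Thus 4 mean levels lay more than 1 log2 unit above the median, 4 more than 1 below it and 1 between. Leaving out dog 1, 2 or 3 gave ENPP1 a level of 1.55, 1.54 and 1.45, and the level of ADORA2A was -0.45 without dog 4. Across all tested genes, 33.3% were called above and 35.8% below (limma, over 1 log2 unit from the median, Benjamini-Hochberg), and nothing is read from that share for the 9 genes.

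The other genes of the pathway were examined in 16 lists by role. Of 132 measured genes, 26 were not detected (reads in fewer than 2 dogs). By that call, 45 of the 106 detected genes lay above the median and 31 below, and 30 were called in neither direction, beside the 33.3% and 35.8% of all tested genes. The counts of the single lists are small, are to be read against the same shares, and show nothing particular to a list. The median level of the 106 detected genes was 0.65, against -0.02 for all tested genes. Levels of different genes are not corrected for length, so lists are described by their counts. None of these genes passed the test of spread after adjustment, and 7 (ENTPD3, FAP, AK5, AMPD3, WNT2, NME1 and ADK) had an unadjusted p under 0.05, beside 5.2% of all tested genes.

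**Figure D4:**
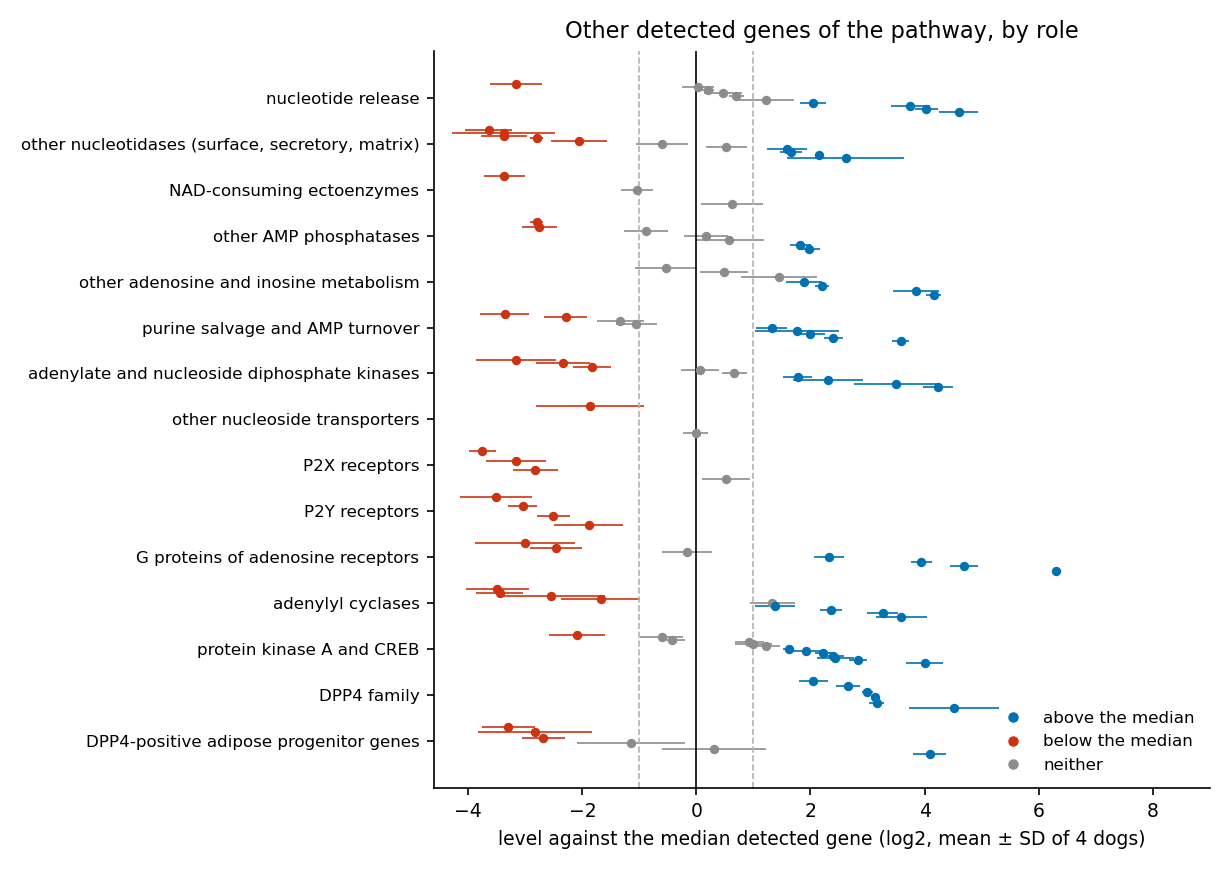
Level of each detected gene of 15 lists against the median detected gene (log2, mean with SD of 4 dogs as bars); colour gives the limma call and dashed lines mark the distance of 1. ADORA3, a list of its own, had 0 reads and is not drawn. All 4 detected P2Y receptors and 3 of 4 P2X receptors lie below the median. All 6 detected genes listed with DPP4 by name or family lie above it. Of all tested genes, 33.3% were called above and 35.8% below.

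Of 14 measured genes of nucleotide release, 4 were above the median, 1 below, 5 neither and 4 not detected, with a median level of 0.96 over the detected genes and 33.3% of all tested genes above. The gap junction and hemichannel protein GJA1 had 3992, 3742, 2902 and 5070.3 normalized reads in dogs 1 to 4. The pannexin channel PANX1 had 759, 567, 558 and 707, and SLC17A9, which loads ATP into vesicles, had 393, 431, 203 and 432. GJA1 was highest in dog 4, and SLC17A9 was low in dog 3 only.

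Among other nucleotidases, ENTPD3 had the largest SD between dogs of the 11 detected genes. ENTPD3, a surface enzyme of the same family that hydrolyses ATP and ADP, had 1043, 1242, 441 and 1069 reads, or 749, 1146, 421 and 2318 normalized reads. Dog 4 was the highest, as it was for ADORA2A, and dog 3 the lowest. Its SD was 1.02 (limma adjusted p = 0.309), and the adjusted p ran from 0.0381, with every gene of the table in the test, to 0.911 in the alternatives. Of the 13 measured genes of that list, 4 were above the median (ENTPD3, ENTPD4, ENTPD6 and ENTPD7, of which ENTPD4 and ENTPD7 act inside the cell), 5 below, 2 neither and 2 not detected. ENPP2 (autotaxin) had 28, 1, 0 and 0 reads and ENPP3 had 15 reads in dog 1 alone.

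Other phosphatases and nucleotidases were measured beside NT5E, whether or not AMP is their main substrate. ACP3, prostatic acid phosphatase, which acts on extracellular AMP in mouse, had 295, 192, 153 and 187 reads, or 212, 177, 146 and 406 normalized reads, highest in dog 4. ALPL, tissue-nonspecific alkaline phosphatase, had 10, 7, 6 and 4 reads. The intracellular nucleotidases NT5C2 and NT5C3B were steady between dogs, with 464 to 644 and 546 to 741 normalized reads. Of the 8 measured genes of this list, 2 were above the median, 2 below, 3 neither and 1 not detected, with a median level of 0.17. Among NAD-consuming ectoenzymes, another route to extracellular AMP, CD38 had 1, 1, 1 and 3 reads, and BST1 had 134, 197, 338 and 291 normalized reads.

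Of 8 other measured genes of adenosine and inosine metabolism, 4 (AHCYL1, PNP, MTAP and AHCY) lay above the median, 0 below, 3 neither and 1 was not detected, with a median level of 1.89. PNP, which splits the inosine that ADA makes, had 1985, 2271, 1780.4 and 3374 normalized reads, highest in dog 4. ADK, which phosphorylates adenosine to AMP, had 493, 463, 630.1 and 204, lowest in dog 4. The secreted deaminase ADA2 had 0 reads in every dog. AHCY, which releases adenosine from S-adenosylhomocysteine, had 441, 580.4, 553 and 763 normalized reads.

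Of the nucleoside transporters other than SLC29A1, 4 were measured. SLC29A3, the lysosomal carrier, had 170.2, 149, 126 and 115 normalized reads. SLC29A4, a carrier of monoamines and adenosine, had 11.5, 6.46, 52.5 and 62.9, with dogs 3 and 4 high, and was below the median at -1.86 ± 0.94. SLC29A2 had 1 read in dog 4 and SLC28A3 had 1 in dog 2.

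The listed genes of the P2X and P2Y families had few reads, apart from P2RX4. Of 6 measured P2X channels, 0 were above the median, 3 below, 1 neither and 2 not detected. Of 8 P2Y receptors, 4 were below and 4 not detected. Among all tested genes 33.3% were above and 35.8% below, and 13751 of all 30951 genes were not detected. With so few genes, nothing is read from these counts for the families. The median levels of their detected genes were -2.995 and -2.77. P2RX4 had 379, 225, 268 and 61 reads, or 272, 208, 256 and 132 normalized reads. P2RX7, the channel that drives inflammasome activation in macrophages, had 1 read each in dogs 1 and 2. P2RY1, an ADP receptor, had 23, 33, 12 and 25 reads, or 16.5, 30.5, 11.5 and 54.2 normalized reads. P2RY2 had 13 reads in dog 1, 1 in dog 2 and 0 in the others.

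Downstream of the adenosine receptors, genes of cyclic AMP signalling were measured in 3 lists. GNAS, the stimulatory G protein to which ADORA2A couples, had 12189, 12847, 12561 and 12593 normalized reads, with an SD of 0.02 in level. Of 7 measured G protein genes, 4 were above the median (GNAS, GNAI2, GNAI3 and GNAQ), 2 below and 1 neither. Of 10 adenylyl cyclases, 4 were above (ADCY7, ADCY6, ADCY9 and ADCY4), 4 below, 1 neither and 1 not detected, beside 33.3% above and 35.8% below among all tested genes. ADCY1 had 5, 9, 3 and 24 reads, or 3.59, 8.30, 2.86 and 52.05 normalized reads, highest in dog 4. ADCY7 had 1333, 1779, 1997 and 2817 normalized reads. Of 14 genes of protein kinase A, CREB and EPAC, 7 were above, 1 below (RAPGEF3), 5 neither and 1 not detected, led by the regulatory subunit PRKAR1A with 1942 to 3254 normalized reads.

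Of 8 measured genes listed with DPP4 by name or family, 6 were above the median and 2 not detected. The median level over the detected genes was 3.06, and 33.3% of all tested genes were above. FAP, the closest relative of DPP4 and a marker of activated fibroblasts, had 7109, 3913, 5944 and 773 reads. In normalized reads these are 5107, 3611, 5674 and 1676. As for DPP4, dog 3 was highest and dog 4 lowest, and the SD was 0.78 (limma adjusted p = 0.549, and 0.983 without dog 4). The intracellular DPP8 and DPP9 had 1297 to 1453 and 1150 to 1327 normalized reads, with SDs of 0.06 and 0.10. DPP6 had 1 read in dog 3 and DPP10 had 0 in every dog.

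For NT5E and for ADORA2A, the member with the largest SD among those with at least 20 reads in each library, the genes with the most similar profile over the 4 dogs were sought among 10602 named genes with a mean of at least 20 normalized reads. Likeness was the largest absolute difference between the centred log2 values of the 4 dogs. These values flatten near 0 reads, so genes with unlike ratios between dogs can come out close. Closest to NT5E were BCL7C (0.021), PSTK (0.046) and DOP1B (0.054). BCL7C had 177, 116, 127 and 67.2 normalized reads, against 33.8, 18.5, 20.05 and 6.51 for NT5E. Closest to ADORA2A were CCDC136 (0.22), HOXA11 (0.26) and STC1 (0.35). CCDC136 had 14.4, 49.8, 14.3 and 323 normalized reads, and STC1, a secreted glycoprotein, had 1 read in dog 2, 49 in dog 4 and 0 in the others. With 4 points and so many candidates, close matches are plentiful, and these names describe the profile only.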

How the data were processed

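The deposited table, which the authors named as VST-normalized counts, holds 1 log2 value per gene and dog. VST is the variance-stabilizing transform found in DESeq2, and DESeq2, FastQC 0.12.1, Trimmomatic 0.39, STAR 2.7.11a and the build CanFam3.1 are listed per the submitters' processing notes. A stranded total RNA kit with ribosomal depletion was used on 10 ng of RNA, per the labels' protocols. How reads were counted, with which strand setting and annotation, is not given in the sources used here, and genes that overlap others (ENTPD1, DPP4 and ADORA1 each overlap another locus in RefSeq) may share reads with them. Columns were matched to dogs by the number in their names, and 0 were left unused.

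Inverting the transform from its lowest value, taken as 0 reads, gave whole reads for 100% of values in each library, within 0.01 reads. Reads served for depth, intervals and values by dog. Tests ran on the log2 values, which flatten near 0 reads. In limma 3.58.1 (R 4.3.3) each level was tested beyond a distance of 1 from the library's median, taken over genes with reads in at least 2 dogs, with a trended prior and Benjamini-Hochberg adjustment at 0.05. The spread between dogs was tested as the gene's variance over the prior variance by an F test. Both were run on simulated data, in which only well-covered genes were changed. The simulated spread was larger than that of any gene of the set. The simulation therefore does not show that spreads of the size seen here would be found. Neighbouring genes were read from RefSeq on UU_Cfam_GSD_1.0, another build, so no coordinates are given.

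The genes, lists and tests were chosen with earlier results of these data known. The text names all 9 measured genes. Other named genes come from a rule that took up to 4 genes of highest level from each other list and the one with the largest SD among those with reads in every dog, and the genes most like NT5E and ADORA2A; not all of the 71 genes so chosen from the set and the lists are described. ENPP2, ENPP3, ALPL, ADA2, SLC29A2, SLC28A3, DPP6, DPP10, PI16, CD55, DACT2, neighbouring genes and the marker genes stand outside that rule and were named after their values were seen. Each dog is 1 culture and 1 library, so spread between dogs includes that between cultures and libraries. Alternatives covered the gene set of the median, the distance, log2 of normalized reads with a pseudocount of 1, the prior, quantile normalization, thinning to 7474011 reads and leaving out each dog.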

Additional observations from a re-analysis of the deposited data

Results flagged for a closer look

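In 8 of 71 genes named by rule (11.3%), 1 library stood apart from the other 3 by Dixon's measure, the gap to the nearest value divided by the range of the 4, above its 95% critical value. Chance gives about 1 in 20, and 5.36% of all tested genes passed. Some of the 71 genes were named because they had the largest SD of their list, so these shares are not like for like. None of the 9 genes of the set passed: the value for ADORA2A was 0.742, since dog 2 lay between dog 4 and the others.

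Dog 4 stood apart for 6 genes. RAPGEF3, a cyclic AMP sensor (0.974), had 43.4 normalized reads in dog 4, against 14.3 to 14.8 in the other dogs. The adenylyl cyclase ADCY9 (0.951) had 978, against 741 to 760.3. CD38 (0.954) had 6.51, against 0.718 to 0.955, which is 3 reads against 1 in each other dog. P2RX3 (0.892) had 0 reads in dog 4, where 3 reads would be 6.51 normalized reads, against 5.03 to 6.68. The diphosphate kinase NME1 (0.841) had 397, against 878 to 1016, and the mitochondrial channel VDAC1 (0.869) had 1490, against 2344 to 2520.0. Dog 3 stood apart for LRRC8A (0.961), a volume-regulated anion channel, with 2112, against 2763 to 2783, and for SLC17A9 (0.877), with 203, against 393 to 432. These gaps were not tested beyond the measure itself.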

How the results depend on the processing

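The calls of level depend on the set of genes behind the median. With genes read in all 4 dogs, 3692 were above and 4084 below. DPP4, ADA, SLC29A1 and ENPP1 then stood at 3.19, 1.23, 1.17 and 1.05, and ADORA2A at -0.27. With every gene of the table, 11032 of 30951 were above and 0 below, and 75 pathway genes were above and 0 below. NT5E, ENTPD1, ENTPD2 and ADORA1 then stood at 1.23, 0.36, 0.80 and 0.63. That setting adds genes at 0 reads to the median and to the trend. There, 183 genes were called variable (2620 with an unadjusted p under 0.05), 1 of them a member, ADORA2A (adjusted p = 0.00607 in limma). In all other alternatives its adjusted p was at least 0.216. Without 1 dog, 0 to 1 genes were called variable, the 1 without dog 4; ADORA2A stood at -0.45 (without dog 4) to 0.75 (without dog 3). Without 1 dog, 4887 to 5230 genes were above and 5304 to 5749 below. Of the main counts recomputed, 84 stayed within 1.5 times the value reported and 12 did not. No paired analysis was possible because the labels give 1 group only. Settings per coding length were not run, since no lengths were used here. Depth limits NT5E, ENTPD1, ENTPD2 and ADORA1, with 2 to 47 reads per dog. With log2 of normalized reads and a pseudocount of 1, their levels were lower, at -2.96, -4.83, -3.77 and -4.21. The values used in the main fit flatten near 0 reads.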

Other observations

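Genes of adenine nucleotide turnover inside the cell were also measured, and none of them passed the test of spread after adjustment. Of 9 measured genes of purine salvage and AMP turnover, 5 lay above the median and 2 below, with 2 called in neither direction. AMPD2, the AMP deaminase, had 1779, 1688, 2063 and 2058 normalized reads in dogs 1 to 4, whereas its relative AMPD3 had 770.0, 359, 307 and 859, high in dogs 1 and 4 (limma adjusted p = 0.732). Of 10 adenylate and nucleoside diphosphate kinases, 4 were above, 3 below, 2 neither and 1 not detected. Among all tested genes 33.3% were above and 35.8% below, and nothing is read from the counts of these lists. The adenylate kinase AK5, which is best known from brain, had 2845, 2528, 915 and 1581 normalized reads (SD 0.74, limma adjusted p = 0.571), lowest in dog 3.

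In mouse and human fat, DPP4 marks an interstitial progenitor population, and 7 further genes of that population were examined. Of these, SEMA3C was above the median (2560.1, 2217, 3620 and 2592 normalized reads), 3 were below, 2 neither and 1 not detected. The shares of all tested genes were 33.3% above and 35.8% below. PI16 had 3, 7, 4 and 0 reads and CD55 had 43, 15, 0 and 1, while DACT2 had 0 in every dog. WNT2 had 329, 89.5, 102 and 310.1 normalized reads, high in dogs 1 and 4, an order that DPP4 does not share.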
